A study of Homo sapiens with 6 samples.

Results

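Of the 25680 gene symbols counted in U87 cells, 9 were followed here: the LDL receptor family members LRP1, LRP1B, LRP4, LRP5, LRP6, LRP8, LRP10 and VLDLR, and LRPAP1, which encodes their chaperone. They were picked by name, with earlier results of these data known, and all 9 had a row of counts. U87 is an established human glioblastoma line, labelled wild type. In all 6 samples the cells had received 500 nM of EPP6, a cyclic peptide carrying the dye rhodamine, for 1 h. The cells were detached and sorted, and RNA was sequenced from the brightest 30% (high uptake, replicates 2, 3 and 4) and from the dimmest 30% (low uptake, replicates 2, 3 and 4). There was thus no library from cells without peptide, and every comparison is between 2 ends of 1 treated population.

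Receptors of this family are single-pass membrane proteins with clusters of cysteine-rich complement-type repeats, through which several of them bind ligands. They enter cells through clathrin-coated pits. LRP1 is a large, fast-recycling scavenger receptor that clears proteases, protease-inhibitor complexes, matrix proteins and lipoprotein remnants, and it is abundant in glia and fibroblasts. VLDLR and LRP8 carry the reelin signal, LRP5 and LRP6 are co-receptors for Wnt, and LRP4 is the agrin receptor of the neuromuscular junction. LRPAP1, also called RAP, keeps ligands off the receptors in the endoplasmic reticulum.

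LRP1 rose in high-uptake cells, and none of the other 7 members tested passed the threshold in the main fit, which did not pair the libraries. The threshold was an adjusted p under 0.05 in edgeR's quasi-likelihood test over all 14598 genes that had enough counts. LRP5 had too few counts to be tested. One call among 8 tested members compares with 4.29% of all tested genes called in either direction, 3.03% higher and 1.26% lower, so the count of members called says little about the family beyond LRP1. At an unadjusted p under 0.05 there were 2 members of 8 (LRP1 and LRP6), against 18.4% of all tested genes. The median log2 fold change of the 8 was 0.04, and that of all tested genes -0.00. With the replicate number as a block, LRP6 and VLDLR also passed as higher and LRP8 as lower. In that fit 21.8% of all tested genes passed. Whether libraries of the same number came from the same sort is not given in the labels.

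Total counts ranged from 13712263 to 40742857 per library, and nothing in the labels says that replicates came from separate cultures, so the p-values reflect no more than sample-to-sample spread, part of which may be technical. Of 10 markers of glioblastoma and glial cells, 7 averaged at least 1 TPM (length-scaled transcript share), with the mesenchymal filament gene VIM between 11291 and 12619 TPM. GFAP (0.188 to 0.562 TPM), S100B (0 to 0.111 TPM) and SOX2 (0 to 0.0429 TPM) were below that level. Of 7 immune markers, CD68 (307 to 369 TPM) and CSF1R (9.64 to 12.3 TPM) averaged at least 1 TPM, AIF1 was at 0 and PTPRC reached 0.145 TPM. Their summed level ranged from 352 to 381 TPM in high uptake and from 319 to 375 TPM in low uptake. Of 6 endothelial markers, KDR alone averaged that much (1.53 to 2.56 TPM), and the sums were 2.43 to 2.76 TPM in high uptake and 2.89 to 3.18 TPM in low uptake. Of 6 epithelial markers, EPCAM alone did (1.57 to 1.82 TPM), with sums of 2.82 to 4.10 and 2.86 to 3.52 TPM. None of 3 hepatocyte markers did (sums of 0.136 to 0.401 and 0.141 to 0.361 TPM, TTR at 0), and no tested marker of these 4 lists passed the threshold. The 6 neuronal markers summed to 368 to 409 TPM in high uptake and 295 to 351 TPM in low uptake. Most of this was TUBB3 (means of 342 and 299 TPM). Of the 5 tested, SNAP25 (means of 28.5 and 16.2 TPM) was higher in high uptake (log2 fold change 0.80, edgeR adjusted p = 0.00987). MAP2 was lower (-0.40, edgeR adjusted p = 0.0415). Of all tested genes 4.29% were called in either direction. STMN2 was at 0 throughout. The part of these cell types in the results was not tested.

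LRP1, the scavenger receptor, held 1242, 1436 and 1107 CPM (read counts scaled to library size, here corrected by TMM) in high-uptake replicates 2, 3 and 4. In low-uptake replicates 2, 3 and 4 it held 767, 875 and 804 CPM. The lowest high-uptake library thus lay above the highest low-uptake library, and the high-uptake libraries were spread more widely. The means were 1262 ± 165 and 816 ± 54.9 CPM (SD, n = 3 each). LRP1 was 1.55-fold higher in high uptake, with a 95% interval from 1.34-fold to 1.79-fold (log2 fold change 0.63, SE 0.0964, edgeR adjusted p = 0.0047). In these bulk samples, more cells that express a gene and more RNA per cell cannot be told apart.

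LRP1 collected between 16443 and 50167 counts in each library, which bounds counting error only. Its SE of 0.0964 was close to the 0.095 of LRP6, a gene with far fewer counts. Its share of all counts was 0.125% ± 0.0156 in high uptake and 0.0822% ± 0.00501 in low uptake (SD, n = 3 each). Ranked by p, LRP1 stood at place 106 of the 14598 genes tested. LRP1 also appears in the authors' deposited table of gene symbols, as does LRP6. That list holds 2305 symbols, beside 25680 counted, and the other 7 members are absent from it.

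LRP1 passed the threshold under each of 19 other settings, with log2 fold changes from 0.48 to 0.72 and adjusted p from 7.34e-10 to 0.0367. Without both libraries numbered 2 its log2 fold change was 0.60 (adjusted p 0.0001). The highest of these p-values came when each library's trend with gene length was removed, a fit in which 3.38% of all tested genes passed. The share of all genes passing was 4.22%, 3.85% and 3.69% with RLE, upper-quartile and total-count scaling, 6.08% in DESeq2 and 4.40% in limma. It was 4.31% with no filter and 4.25% with at least 50 counts in 3 libraries. Leaving out high replicate 3, high replicate 4 or low replicate 2 gave 4.92%, 2.63% and 3.73%, and leaving out both libraries numbered 2 gave 5.51%.

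Gene length matters here because LRP1 is long. The gene model behind the authors' values spans 14888 bases of exon, longer than 99.4% of tested genes. Longer genes tended to stand higher in high uptake: the median log2 fold change was -0.10 over the 1458 shortest genes (43 to 1140 bases) and 0.10 over the 1460 longest (7009 bases and up). Among those 1460 longest genes, 8.77% passed the threshold, and 7.60% passed as higher. Once the trend was removed, the log2 fold change of LRP1 was 0.48 with an adjusted p of 0.0367.

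**Figure D1:**
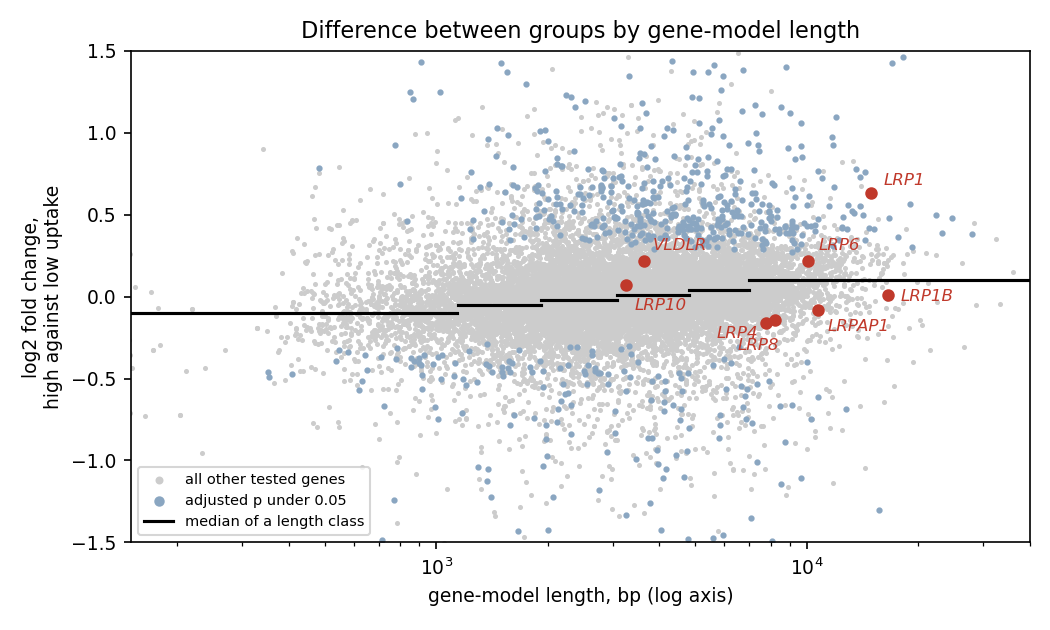
Log2 fold change of each tested gene, high against low uptake, against gene-model length on a log axis, with the 8 tested members in red, genes past the threshold in blue and the median of each length class as a black line. LRP1 sits at 0.63, above the median of 0.10 for the 1460 longest genes, while LRP1B, LRPAP1, LRP6, LRP4 and LRP8, also among them, lie between -0.16 and 0.22; 373 genes lie outside the axes.

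Besides LRP1, 5 of them belonged to the 1460 longest genes, which makes 6 in all, and LRP1 was the 1 that passed. LRP1B, the longest at 16531 bases, had a log2 fold change of 0.01, and LRPAP1, at 10703 bases, had -0.08.

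LRP1 lies on chromosome 12. The 250 bases before its start site are shown because it is the member whose RNA differed. They come from RefSeq on GRCh38.p14 (chr12:57128233-57128482, plus strand), another build than the hg19 of the counts. Capitals mark a GC box, the letters GGGCGG or their reverse complement.
LRP1 upstream: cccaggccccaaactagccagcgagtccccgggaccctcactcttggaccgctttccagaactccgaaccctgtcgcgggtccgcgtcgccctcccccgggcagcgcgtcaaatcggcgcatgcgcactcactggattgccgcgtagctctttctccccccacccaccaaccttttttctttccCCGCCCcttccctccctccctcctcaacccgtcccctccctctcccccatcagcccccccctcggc
G and C made up 67.6% of this stretch, which held 1 GC box and no CCAAT box (CCAAT, both strands). Over all 35114 such windows, 42.6% held a GC box and 32.0% a CCAAT box. The promoter table matched 6 of the 9 members, and a match of letters is a description only.

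A few exon bases of LRP1 lie under other genes on the opposite strand, 59 of them shared with STAT6 and 112 with LRP1-AS in the GENCODE 29 annotation. Whether counting used strand is not given in the sources used here, so reads from those bases cannot be assigned. STAT6, a cytokine-activated transcription factor, averaged 98.7 ± 8.42 CPM (high uptake) and 101 ± 7.36 CPM (low uptake) (SD, n = 3 each; log2 fold change -0.03, edgeR adjusted p = 0.9). LRP1-AS was not analysed here.

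LRP1B, the closest relative of LRP1 and a slowly internalised receptor, was barely expressed. It held 6.44, 5.42 and 5.52 CPM in the high-uptake libraries and 6.06, 5.64 and 5.67 CPM in the low-uptake libraries, in the order of replicates 2, 3 and 4. The groups overlapped, and the 95% interval of the fold difference ran from 0.827 to 1.22 (edgeR adjusted p = 0.985). The sign of its small log2 fold change depended on the setting.

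Per unit of length, the members covered more than 3 orders of magnitude, a span that rests on LRP5 with 3 to 14 counts per library. LRP1 led at 208 ± 24.2 TPM in high uptake and 131 ± 7.22 TPM in low uptake (SD, n = 3 each), and by its mean over the 6 libraries it ranked 1054 among all genes. LRP10 followed at 98.7 ± 7.16 and 91.6 ± 8.85 TPM, then LRP8 at 46.6 ± 3.49 and 50.7 ± 0.893 TPM. LRPAP1 (31.1 ± 1.37 and 32.1 ± 1.85 TPM) and VLDLR (29.9 ± 3.10 and 25.1 ± 2.21 TPM) came next.

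LRP4 (8.52 ± 0.581 and 9.17 ± 0.474 TPM) and LRP6 (8.92 ± 0.85 and 7.47 ± 0.464 TPM) formed a lower tier, above LRP1B (0.861 ± 0.0852 and 0.84 ± 0.0463 TPM) and LRP5 (0.0907 ± 0.0411 and 0.124 ± 0.052 TPM). Neighbours in this order had separate ranges in both groups, with 2 exceptions. LRPAP1 overlapped VLDLR, and LRP4 overlapped LRP6, among high-uptake libraries, while in low uptake both pairs were apart. These levels rest on the authors' gene-model lengths, which add up all annotated exons, so a gene that mainly uses a short transcript reads too low.

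**Figure D2:**
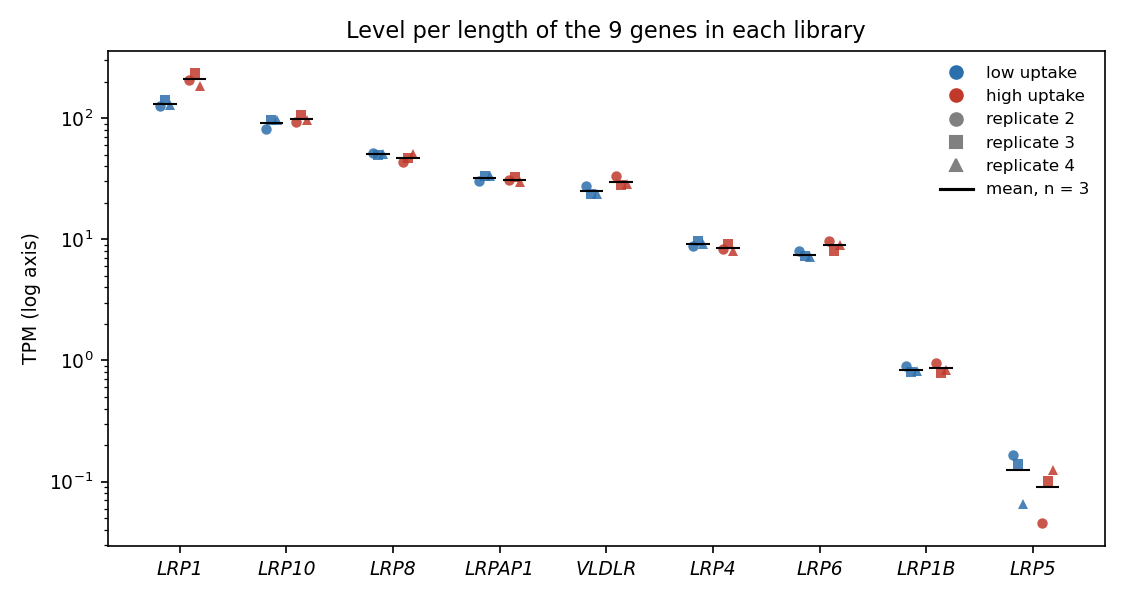
TPM of each of the 9 genes on a log axis in the 3 low-uptake (blue) and 3 high-uptake (red) libraries, with marker shape for the replicate number and a black line for the mean of 3. LRP1 is the highest gene in every library, from 126 to 234 TPM, and LRP5 the lowest, from 0.0455 to 0.165 TPM.

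LRP1 made up a larger part of the receptor RNA in high uptake. Of the TPM summed over the 8 receptors, it supplied 52.2%, 54.0% and 48.9% in high-uptake replicates 2, 3 and 4, and 41.3%, 42.5% and 40.7% in low-uptake replicates 2, 3 and 4. The other 7 receptors together held 194 ± 5.51 TPM in high uptake and 185 ± 5.51 TPM in low uptake (SD, n = 3 each). LRP1 exceeded its chaperone LRPAP1 by a TPM ratio of 6.67 ± 0.48 in high uptake and 4.10 ± 0.191 in low uptake. The size of that ratio rests on gene-model lengths of 14888 and 10703 bases, and which transcripts the cells use was not tested. These ratios follow from the LRP1 difference already given and are a description.

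LRPAP1, the chaperone, held 134, 144 and 128 CPM in high-uptake replicates 2, 3 and 4 and 131, 149 and 149 CPM in low-uptake replicates 2, 3 and 4. The groups overlapped. Its log2 fold change was -0.08 with a 95% interval from -0.26 to 0.10 (edgeR adjusted p = 0.677), an interval that leaves out the 1.55-fold difference seen for LRP1.

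VLDLR, a receptor for apolipoprotein E and reelin, held 49.5, 41.9 and 41.3 CPM in high uptake and 41.2, 36.5 and 36.2 CPM in low uptake (replicates 2, 3 and 4). The values did not overlap, though high replicate 4 and low replicate 2 all but met. The log2 fold change was 0.22 (SE 0.101, edgeR adjusted p = 0.273).

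LRP8, the second reelin receptor, pointed the other way. It held 137, 149 and 156 CPM in high uptake and 165, 164 and 164 CPM in low uptake. The low-uptake libraries lay within a very narrow band above all 3 high-uptake libraries. The log2 fold change was -0.16 (SE 0.0776, edgeR adjusted p = 0.314).

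LRP6, the Wnt co-receptor of the pair that was well measured, held 40.0, 33.5 and 36.2 CPM in high uptake and 33.1, 30.9 and 30.2 CPM in low uptake. The lowest high-uptake value was just above the highest low-uptake value. The log2 fold change was 0.22 with a 95% interval from 0.02 to 0.43 (unadjusted p = 0.0367, edgeR adjusted p = 0.235). With the length trend removed it was 0.12 (adjusted p 0.533).

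LRP5, its partner, collected 4, 3 and 9 counts in high-uptake replicates 2, 3 and 4 and 14, 7 and 3 counts in low-uptake replicates 2, 3 and 4. At this depth no difference could be detected. Over 1606 of its 5159 bases, its longest transcript is alike, at 90.66% identity, to that of LRP5L, a partial copy. Reads from that part may be split or lost in counting. Whether the counting could register the rest of LRP5 was not tested. LRP5L averaged 2.15 ± 0.457 CPM (high uptake) and 2.42 ± 0.275 CPM (low uptake) (SD, n = 3 each; edgeR adjusted p = 0.645).

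LRP4, the agrin receptor, held 27.9, 31.2 and 26.6 CPM in high uptake and 29.4, 33.5 and 31.5 CPM in low uptake. The groups overlapped (log2 fold change -0.14, 95% interval -0.36 to 0.07, edgeR adjusted p = 0.471). LRP4-AS1, whose exons share 515 bases with LRP4 on the opposite strand, was far lower at 2.38 ± 0.383 and 3.09 ± 0.62 CPM (SD, n = 3 each; edgeR adjusted p = 0.341). VLDLR-AS1 likewise overlaps VLDLR, by 738 bases, and held 2.50 ± 0.55 and 2.34 ± 0.464 CPM (edgeR adjusted p = 0.914).

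LRP10, a receptor that cycles between the trans-Golgi and endosomes, held 122, 143 and 127 CPM in high uptake and 108, 133 and 132 CPM in low uptake. The groups overlapped (log2 fold change 0.07, 95% interval -0.15 to 0.29, edgeR adjusted p = 0.773).

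**Figure D3:**
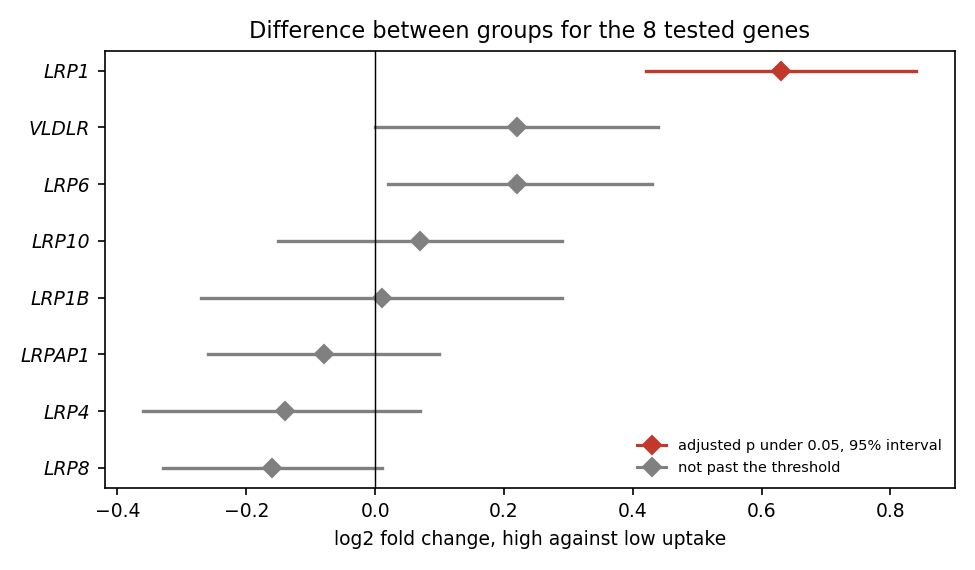
Log2 fold change of the 8 tested members, high against low uptake (diamonds), with the 95% interval as a line, red where the adjusted p was under 0.05. The interval of LRP1, 0.42 to 0.84, lies to the right of the intervals of LRP10, LRP1B, LRPAP1, LRP4 and LRP8 and overlaps those of VLDLR and LRP6 at its lower end.

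In all, the 3 high-uptake values lay apart from the 3 low-uptake values for 4 of the 8 tested members: LRP1, LRP6 and VLDLR upward and LRP8 downward. This was true of 24.4% of all tested genes. After removing the dependence of each library on GC content, LRP6 (log2 fold change 0.22, adjusted p 0.0229), VLDLR (0.21, adjusted p 0.0464) and LRP8 (-0.17, adjusted p 0.0328) passed beside LRP1, which makes 4 of 8 members. In that fit 18.6% of all tested genes passed. The log2 fold changes of these 3 genes moved by no more than 0.01 between the fits, while their adjusted p fell below the threshold.

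Among 11 related receptor genes, 7 were tested and none passed in edgeR (2 at an unadjusted p under 0.05, a level met by 18.4% of all tested genes). LDLRAD2 had the smallest p, at 3.30 ± 0.556 and 1.91 ± 0.59 CPM in high and low uptake (SD, n = 3 each; log2 fold change 0.76, edgeR adjusted p = 0.0887). LRP2, LRP3 and LDLRAD1 were listed at 0 in all 6 libraries, and whether the counting could register them was not tested. The sorting receptor SORL1 had 0, 21 and 9 counts in high-uptake replicates 2, 3 and 4 and 1, 5 and 3 counts in the low-uptake ones.

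The genes that work with the family were described by list. Over 7 lists of 168 genes (related receptors, ligands, tail adaptors, folding and shedding, Wnt partners, agrin signalling and sterol regulators), 132 were tested. Of these, 13 rose, which is 9.85%, and none fell. Over all tested genes 3.03% rose and 1.26% fell, so calls leaned upward there too. The lists were chosen with earlier results of these data known, so the gap between these shares is no test of the lists. The median log2 fold change of the 132 was 0.07, against -0.00 over all tested genes. The count ranged from 5 to 14 when a single library was left out: leaving out high replicate 2 gave 6, and leaving out either of low replicates 3 and 4 gave 5. In those same 3 settings 1.95%, 1.85% and 1.55% of all tested genes passed. With the GC trend removed 38 of the listed genes passed, beside 18.6% of all genes.

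Among 38 known or proposed ligands, 29 were tested, 4 rose and none fell, and the median log2 fold change was 0.18. The calls were 13.8% of those tested, beside 4.29% of all tested genes called in either direction. FN1, which encodes the matrix protein fibronectin, rose by 1.82 on the log2 scale, from 1868 ± 79.2 CPM in low uptake to 6617 ± 734 CPM in high uptake (SD, n = 3 each; edgeR adjusted p = 2.68e-06). TIMP2, an inhibitor of metalloproteinases, rose by 0.57 (449 ± 23.8 against 302 ± 7.13 CPM, edgeR adjusted p = 0.00191).

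THBS2, a thrombospondin cleared through LRP1, rose by 0.42 (76.1 ± 4.83 against 56.7 ± 1.46 CPM, edgeR adjusted p = 0.0177). MMP2, a gelatinase, rose by 0.37 (3139 ± 209.5 against 2427 ± 267 CPM, edgeR adjusted p = 0.0414). The THBS2 call was lost on leaving out high replicate 2 or either of low replicates 3 and 4 (adjusted p up to 0.0806), and that of MMP2 on leaving out any 1 of the 6 libraries (up to 0.0984). The MMP2 call was also lost with upper-quartile scaling, with the filter at 50 counts, with the length trend removed and without both libraries numbered 2, which makes 10 of 19 settings.

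A further ligand was picked out after its values were seen. THBS1, the other thrombospondin, had the second largest log2 fold change of the list, 1.18, without passing: its low-uptake libraries ran from 43.5 to 135 CPM (edgeR adjusted p = 0.302). The classical ligands A2M, APOB, LPL and RELN had too few counts to be tested.

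Of 21 adaptors and kinases that act on the receptors' cytoplasmic tails, 20 were tested, 2 rose and none fell (median log2 fold change 0.01). That is 10.0% called, beside 4.29% of all tested genes. FYN, a Src-family kinase of the reelin pathway, rose by 0.45 (129.7 ± 7.79 against 94.7 ± 0.819 CPM, SD, n = 3 each; edgeR adjusted p = 0.00891). PRKCA, a protein kinase C that phosphorylates the LRP1 tail, rose by 0.39 (532 ± 32.8 against 407 ± 14.1 CPM, edgeR adjusted p = 0.0143). The endocytic adaptors DAB2 and NUMB, named after their values were seen, did not pass (edgeR adjusted p = 0.513 and 0.993). FYN lost its call without low replicate 4 (adjusted p 0.0578), and PRKCA on leaving out the same library, low replicate 3 or high replicate 2 (up to 0.09).

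Of 23 genes for folding, turnover and shedding, 22 were tested, 2 rose and none fell (median log2 fold change 0.05). That is 9.09% called, beside 4.29% of all tested genes. BACE1, the protease of amyloid precursor that also cuts LRP1, rose by 0.43 (70.3 ± 1.09 against 52.0 ± 1.44 CPM, SD, n = 3 each; edgeR adjusted p = 0.0115). ADAM12, a membrane metalloproteinase, rose by 0.39 (357 ± 18.9 against 273 ± 9.71 CPM, edgeR adjusted p = 0.0143). The BACE1 call ended when either of low replicates 3 and 4 was left out (highest adjusted p 0.0578), and that of ADAM12 also on leaving out high replicate 2 (highest 0.0919).

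Of 58 genes that work with LRP5 and LRP6 in Wnt signalling, 39 were tested, 4 rose and none fell (median log2 fold change 0.04). That is 10.3% called, beside 4.29% of all tested genes. WNT5A, a Wnt ligand that mostly signals without beta-catenin, rose by 0.58 (451 ± 50.8 against 301 ± 24.6 CPM, SD, n = 3 each; edgeR adjusted p = 0.00684). LGR4, an R-spondin receptor, rose by 0.59 (72.8 ± 10.9 against 48.6 ± 2.52 CPM, edgeR adjusted p = 0.0133). FZD1, a Wnt receptor, rose by 0.50 (edgeR adjusted p = 0.0152) and KREMEN1, a receptor for the LRP6 inhibitor DKK1, by 0.42 (edgeR adjusted p = 0.0417).

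AXIN2, a feedback target of Wnt signalling that was named after its values were seen, stood at 2.42 ± 0.723 and 1.98 ± 0.314 CPM (SD, n = 3 each; 95% interval of the log2 fold change -0.32 to 0.73, edgeR adjusted p = 0.714). RNF43 and LEF1, also named after their values were seen, had log2 fold changes of -0.69 and -0.24 without passing (edgeR adjusted p = 0.0632 and 0.272). Over the 39 tested genes of this list, 23 log2 fold changes were above 0 and 16 below. LGR4 lost its call without low replicate 3 (adjusted p 0.0543), FZD1 without low replicate 3 or high replicate 2 (up to 0.0668) and KREMEN1 on leaving out any 1 of the 6 libraries (up to 0.121). The KREMEN1 call was also lost with upper-quartile or total-count scaling, with the filter at 50 counts, with the length trend removed (0.114) and without both libraries numbered 2, which makes 11 of 19 settings.

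The agrin list gave no call in edgeR among 4 tested genes of 6 (2 at an unadjusted p under 0.05, against 18.4% of all tested genes). DOK7, an adaptor of the muscle agrin receptor complex, had the smallest p, at 2.36 ± 0.133 and 1.27 ± 0.545 CPM (SD, n = 3 each; log2 fold change 0.99, edgeR adjusted p = 0.0946). Of 11 sterol regulators, all tested, 1 rose and none fell: ABCA1, a cholesterol exporter, by 0.44 (158 ± 16.6 against 117 ± 6.93 CPM, edgeR adjusted p = 0.0228). That 1 call was 9.09% of the sterol list, beside 4.29% of all tested genes. ABCA1 lost its call with the length trend removed (0.057) and without high replicate 2, low replicate 3 or low replicate 4 (up to 0.114).

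**Figure D4:**
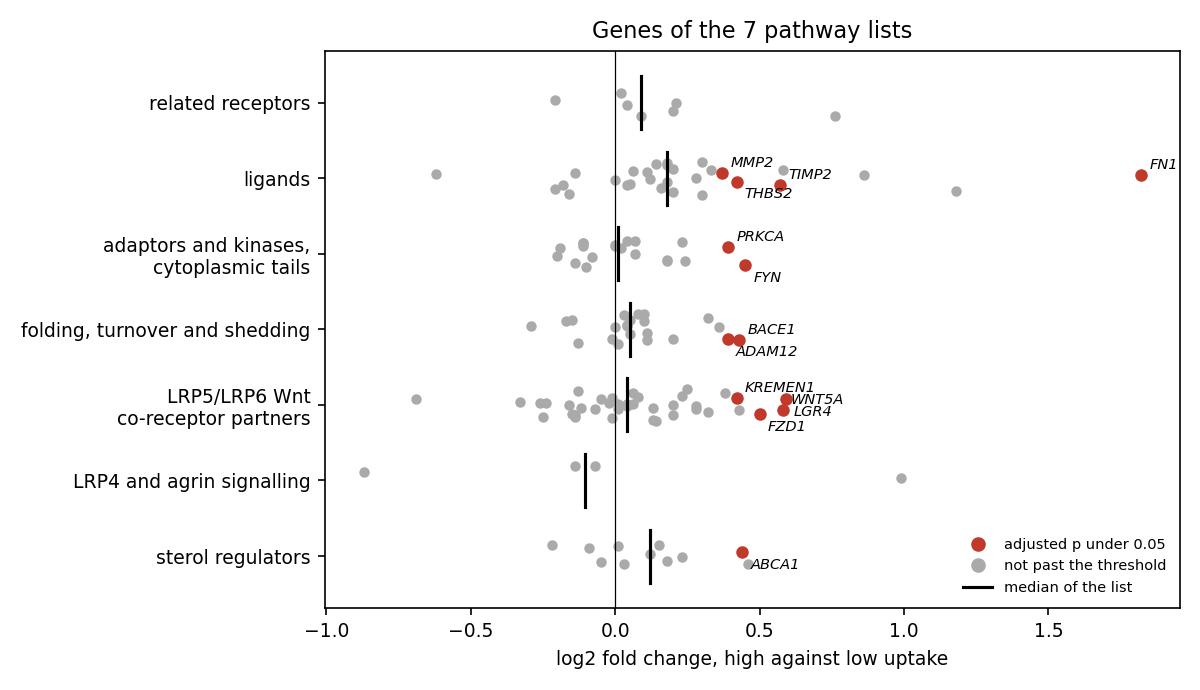
Log2 fold change, high against low uptake, of every tested gene in the 7 pathway lists, with genes past the threshold in red and named, the others in grey, and the median of each list as a black bar. All 13 red points lie to the right of 0, FN1 farthest at 1.82.

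The genes whose pattern over the 6 libraries was most like that of LRP1 were CLEC3B (Pearson r = 0.9965), PLOD1 (0.9956), FLJ23867 (0.9951), GYS1 (0.9949) and OLFML2A (0.9946), out of 13178 genes that averaged at least 1 CPM over all 6 libraries. CLEC3B met that minimum through the high-uptake libraries alone, with 1.41, 2.0 and 1.17 CPM against 0.518, 0.773 and 0.587 CPM, and rests on 12 to 57 counts per library. They encode, among others, the plasminogen-binding protein tetranectin (CLEC3B), a collagen lysyl hydroxylase (PLOD1) and the muscle-type glycogen synthase (GYS1). PLOD1 held 355, 388 and 318 CPM in high-uptake replicates 2, 3 and 4 and 235, 274 and 249 CPM in the low-uptake ones, so that, as for LRP1, replicate 3 was the highest of each group. These correlations describe 6 libraries that share the same sort, and no test was made of them.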

How the data were processed

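RNA-seq counts came from 3 high-uptake and 3 low-uptake libraries, prepared strand-specifically from total RNA, per the labels' protocols. Tools listed in the submitters' processing notes are fastp, STAR and featureCounts, with build hg19; versions, gene models and use of strand were not given in the sources used here. Whole-number read counts per gene symbol, FPKM and TPM stood side by side, per the file headers. Tests used the deposited counts only. TPM values computed by the authors gave levels per length, and FPKM values deposited by the authors gave gene-model lengths. A list of gene symbols for high against low uptake, deposited with the same series and without values, was used for membership only.

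Genes passing edgeR's filterByExpr (minimum count 10, minimum total 15) numbered 14598. The test was edgeR 4.0.16's quasi-likelihood F-test with TMM scaling, robust moderation and no covariate, two-sided, Benjamini-Hochberg adjusted, threshold 0.05. The standard error is the log2 fold change over the square root of F. A prior count of 2 was added for log CPM. The common dispersion corresponded to a biological coefficient of variation of 0.099. No 2 libraries of a group looked like 1 library deposited in duplicate. The chi-square per degree of freedom was 2.44 for low replicates 3 and 4, and from 12.2 to 20.8 for the other pairs. Why low replicates 3 and 4 were more alike was not tested. Alternatives were other scalings, filters and tools (DESeq2 1.42.0, limma 3.58.1), single libraries left out, the replicate number as a block, and length or GC trends removed by a spline (6 degrees of freedom); GC content was known for 92.8% of tested genes. The script was tested on simulated data. Exon overlap and likeness of transcripts came from GENCODE 29. Members and lists were chosen with earlier results of these data known. The genes named were all members, up to 6 called genes per list or else the 1 of smallest p, SORL1, LRP5L, genes overlapping a member's exons, and the 5 most like LRP1; others are marked as picked after their values were seen. Some genes under this rule are not reported here.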

Additional observations from a re-analysis of the deposited data

How the results depend on the processing

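LRP1 kept its direction and its call in all 19 alternatives. The number of members past the threshold was 1 in the other settings but 4 with the GC trend removed, 4 with the replicate number as a block, 5 with the replicate block and the length trend removed, and 4 with the replicate block and the GC trend removed; it was 1 with any single library left out. In those 4 settings 18.6%, 21.8%, 19.3% and 29.3% of all tested genes passed. With the replicate block and the length trend removed, VLDLR passed as higher beside LRP1, and LRP4, LRP8 and LRPAP1 passed as lower. There the edgeR adjusted p was 0.0292 for LRP4 and 0.0227 for LRPAP1. In the others of these settings, LRP6 and VLDLR passed as higher beside LRP1, and LRP8 as lower. The 13 listed pathway genes became 22 without a filter (20608 genes tested), 38 with the GC trend removed, 43 with the replicate block, 43 with the replicate block and the length trend removed, 49 with the replicate block and the GC trend removed, and 5 to 14 without a single library. FN1, TIMP2 and WNT5A were called in all settings, and the other 10 lost their call in at least 1. The cause of these shifts was not tested. No label says what the replicate numbers share, and the samples were not treated as paired because 1 of the 3 correlations between same-numbered libraries' deviations from their group means was not over 0.1 (0.452, 0.304 and 0.087). Each high-uptake library and low replicates 2 and 3 correlated best with their own number, a hint of pairing from the data, while low replicate 4 correlated best with high replicate 3 (0.216). The block raised the calls over all genes from 626 to 3176.

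Differences near 0 changed sign. LRP1B was at -0.01 with upper quartile scaling, -0.02 with total counts, -0.15 with the length trend removed, -0.14 with that and the replicate block, -0.00 with the GC trend removed, -0.05 without both libraries numbered 2, and from -0.09 to 0.06 without single libraries. Without single libraries LRP10 ranged from -0.02 to 0.12, STAT6 from -0.11 to 0.03 and VLDLR-AS1 from -0.09 to 0.22. LRP5, at 3 to 14 counts, was too shallow to test, and reads lost to LRP5L (35 to 87 counts) were not tested.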
